A study of Mus musculus with 9 samples.

Results

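Solid prostate tumours were compared with high-grade prostatic intraepithelial neoplasia (HG-PIN, dysplastic epithelium still held within the gland) from the same 3 mice. All were male mice of mixed strain aged 12 months. They carried PbCre, a Cre recombinase that the probasin promoter drives in prostate epithelium, and T-3Mb-Erg on one chromosome. As the study is known to have built it, T-3Mb-Erg joins Tmprss2 to Erg with loss of the segment between them, so that an androgen-responsive promoter drives an ETS transcription factor. Each lesion was cut by laser from fixed, embedded and haematoxylin-stained sections; the HG-PIN captures were of epithelial cells, and the solid tumours were poorly differentiated adenocarcinomas. The comparison rests on 6 of the 9 arrays in the series, 3 for tumours and 3 for HG-PIN, chosen by genotype, lesion and mouse in the sample labels. The other 3 arrays hold HG-PIN from 3 further mice of the same age with PbCre and without T-3Mb-Erg, called control HG-PIN here, and those lesions are not normal tissue.

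A glandular epithelium is held together by E-cadherin junctions, sealed by claudins and braced by keratins. Transcription factors such as Foxa1, Elf3, Ehf and Grhl2 keep that state, and the gland secretes antimicrobial and protective proteins into its lumen. Poorly differentiated carcinomas are known for losing parts of this programme, and in some tumours mesenchymal genes such as Vim, Prrx1 and Lox appear.

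Values are log2 intensities of the array, and a change is the tumour mean minus the HG-PIN mean on that scale (n = 3 arrays a group). Its SE comes from the limma fit, which pools the spread over all 9 arrays, control HG-PIN included. It is therefore not the spread of the tumour and HG-PIN arrays alone. Of 16635 genes tested, 11 were called higher in tumours (0.0661%) and 36 lower (0.216%), a call being a Benjamini-Hochberg adjusted p under 0.05 from limma. Before adjustment, p was under 0.05 for 610 genes with positive and 662 with negative changes. The 36 genes that fell did so by 2.82-fold to 42.4-fold. Of these, 9 were in a list of mucosal defence genes and 4 in a list of junction and polarity genes. The 11 that rose, by 2.63-fold to 18.9-fold, included Ctla2a, Lox, Gja1 and Prrx1. All 47 moved the same way in 3 of 3 mice, where 11.5% of all genes were higher in 3 of 3 and 13.1% lower in 3 of 3. For all 47 the tumour arrays lay outside the range of the 3 HG-PIN arrays, as for 11.4% of all genes, and outside that of all 6 HG-PIN arrays of both genotypes, as for 5.0%. A call rests on these same arrays, so the shared direction and the separation largely follow from it and are no further evidence.

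The calls depended on how the pairing by mouse was fitted. The main fit, which gave the 47 calls, held the mouse as a random block. The correlation of that block was -0.01, so the main fit was close to an unpaired comparison. Called here the fixed block, a fit over 9 arrays gave each of the 3 mice with both captures a term of its own and took control arrays only into the spread. It called 15 genes (0.0902%), among them 9 of the 36 that fell (Cbr2, Cldn4, Cyp2f2, Car2, Gabrp, Ltf, Krt4, Smim22 and Krt15) and 5 of the 11 that rose (Prrx1, Gja1, Gpx3, Gatm and Arhgdib). Adjusted p values of the 47 in that fit ran from 0.0215 to 0.0857. The paired fit of the 6 arrays alone called 26 genes (0.156%), 1 higher and 25 lower. Ctla2a was the 1 of the 11 rises to pass there, and 19 of the 36 falls passed, which were Gsdmc2, Gsdmc3, Mmp7, Slc12a2, Reg3g, Cbr2, Cxcl15, Pigr, Cldn4, Tspan1, Cyp2f2, Car2, Smim22, Gabrp, Elf3, Ltf, Foxa1, Myo5c and Krt4. Prrx1 (adjusted p = 0.0572), Gja1 (0.0675), Gpx3 (0.0675), Gatm (0.0524), Arhgdib (0.0993) and Krt15 (0.0572) passed with the fixed block and not in the 6-array fit. Without the tumour array of mouse 1, 0 genes were called by limma, where p before adjustment was under 0.05 for 416 positive and 417 negative changes; without the HG-PIN array of mouse 1, 0 were called higher (516 at p under 0.05 before adjustment) and 5 lower. Without the HG-PIN array of mouse 2 the counts were 2 higher and 6 lower, without the tumour array of mouse 2 they were 85 higher and 25 lower, and without the tumour array of mouse 3 they were 28 higher and 66 lower. Without the HG-PIN array of mouse 3, 84 were called lower, and without control HG-PIN arrays 2 and 3, 64 and 16 were called lower, with 5 called higher without the latter.

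**Figure D1:**
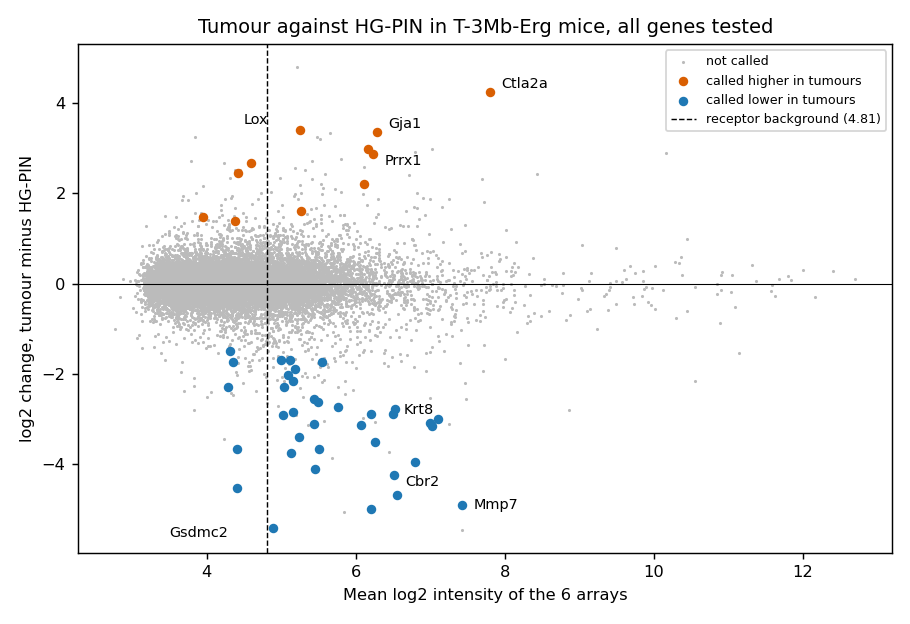
Log2 change of tumour minus HG-PIN (vertical axis) against the mean log2 intensity of the 6 arrays (horizontal axis) for all 16635 genes tested, 1 point a gene. Orange points are the 11 genes called higher and blue points the 36 called lower; the dashed line at 4.81 is the receptor background described in the text.

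The arrays and their labels were looked at first. Medians of intensity over all probe sets were close, from 13.6 to 15.4 on the linear scale, and the 95th percentile of their log2 signal lay between 6.15 and 6.65. As a gauge of unexpressed signal, 1390 olfactory and vomeronasal receptor genes were used, whose 95th percentile of mean log2 intensity was 4.81; 33.7% of the genes tested had an HG-PIN or tumour mean above it. Of the 36 genes that fell, 29 had a tumour mean below this level, and 9 of the 11 that rose had an HG-PIN mean below it, so those folds are measured against readings in the range of unexpressed genes. Erg, the gene that the engineered allele is built to express, read 3.68, 4.30 and 3.89 in HG-PIN of mice 1, 2 and 3 and 4.19, 4.54 and 4.83 in their tumours, against 3.68 to 4.22 in control HG-PIN. All but 1 of these readings were under the background, the groups overlapped, and Erg signal therefore does not check the genotype labels. Tmprss2, a serine protease of luminal cells whose locus the allele alters, read 6.50, 6.34 and 6.66 in HG-PIN and 4.45, 4.63 and 5.12 in tumours, with no overlap between these groups. Its log2 change was -1.77 (SE 0.42, adjusted p = 0.141). The mean level of Tmprss2 and Erg was 5.09, 5.32 and 5.28 in HG-PIN of mice 1, 2 and 3 and 4.32, 4.59 and 4.98 in their tumours. In control HG-PIN that mean was 5.02, 4.58 and 5.17, overlapping both, so it does not check the genotype labels either.

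Epithelial adhesion and keratin genes were set against the tissue labels; the same genes are results of the comparison, so that reading is no independent check. The HG-PIN arrays had clear signal for Krt8, Krt18, Cdh1 and Epcam, whereas in tumours Epcam and Cldn4 were at or under the background on every array and Krt18 remained above it on 3 of 3. Of 38 junction and polarity genes tested, 4 fell and 0 rose (0 also higher at p under 0.05 before adjustment), with a median change of -0.57 against -0.01 over all genes tested. The gene lists were drawn up with earlier results of these data known, so their counts are no independent evidence of a direction. Over all 16635 genes tested, 0.0661% were called higher and 0.216% lower. Before adjustment p was under 0.05 for 610 higher and 662 lower, and 48.9% of changes were positive. The counts of each list stand against these.

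Promoter sequence is shown for 3 epithelial genes that fell and 1 gene that rose, to set them beside each other for the CAGGTG box, an element that Snail and Zeb factors are known to bind. Each is the 250 bases before the transcription start, 5′ to 3′ on the gene's strand, from RefSeq for GRCm38.p6, with CAGGTG and its reverse complement CACCTG in capitals.
Cldn4, chr5:134946935-134947184, minus strand: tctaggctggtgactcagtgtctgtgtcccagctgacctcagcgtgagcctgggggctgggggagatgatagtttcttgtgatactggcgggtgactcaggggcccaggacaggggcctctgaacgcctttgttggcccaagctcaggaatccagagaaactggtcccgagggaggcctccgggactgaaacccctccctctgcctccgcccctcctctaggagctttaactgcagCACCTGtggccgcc
Epcam, chr17:87635729-87635978, plus strand: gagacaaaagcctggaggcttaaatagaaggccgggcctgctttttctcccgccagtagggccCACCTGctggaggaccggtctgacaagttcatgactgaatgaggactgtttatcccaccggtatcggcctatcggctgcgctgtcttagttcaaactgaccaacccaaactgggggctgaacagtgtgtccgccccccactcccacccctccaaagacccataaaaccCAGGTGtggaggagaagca
Krt8, chr15:102004343-102004592, minus strand: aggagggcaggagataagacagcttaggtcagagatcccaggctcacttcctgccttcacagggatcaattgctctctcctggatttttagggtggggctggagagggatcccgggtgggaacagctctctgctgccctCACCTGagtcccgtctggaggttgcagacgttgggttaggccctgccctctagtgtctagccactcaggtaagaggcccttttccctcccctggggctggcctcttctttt
Prrx1, chr1:163313651-163313900, minus strand: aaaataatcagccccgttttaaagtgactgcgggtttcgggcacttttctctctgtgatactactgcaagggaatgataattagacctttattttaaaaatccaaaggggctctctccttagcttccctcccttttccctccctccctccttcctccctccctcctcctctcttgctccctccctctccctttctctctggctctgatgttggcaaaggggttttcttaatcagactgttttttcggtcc

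The box stood at 1 place before Cldn4, its first base 14 bases before the start (-14), at 2 places before Epcam (-187 and -19), at 1 before Krt8 (-111) and at 0 before Prrx1. Among all 32851 promoters of the same length, 17.2% held it on either strand, as did 17.3% of those of genes tested and 16.6% of those of genes tested with an HG-PIN mean above background. It was found in 15 of 28 promoters (53.6%) of the 24 genes that fell and have a promoter in the RefSeq table, and in 2 of 11 (18.2%) of the 8 that rose. Several promoters of a gene can share bases. The GGAA core of ETS sites, with its reverse complement TTCC, occurred in 93.4% of all promoters, in 96.4% for genes that fell and in 81.8% for genes that rose. Neither motif contains the other. These are matches of letters in a short window, given as a description without a test.

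Cldn4, a claudin of the tight junction, read 7.23, 6.50 and 7.28 in HG-PIN of mice 1, 2 and 3 and 2.67, 3.48 and 3.59 in their tumours. Every tumour array was lower than every HG-PIN array by a wide margin. The log2 change was -3.76 (SE 0.42, 13.5-fold, adjusted p = 0.00436; 0.0215 with the mouse as a fixed block). Cdh1, which encodes E-cadherin, read 8.10, 7.96 and 6.86 in HG-PIN and 4.31, 4.94 and 5.02 in tumours, so that mouse 3 began lowest and had the smallest fall. Its log2 change was -2.88 (SE 0.50, adjusted p = 0.0424, fixed block 0.0809), and a second Cdh1 probe set gave -2.60. Epcam, an adhesion protein of epithelia, read 6.77, 6.85 and 6.55 against 3.84, 3.87 and 4.81, a change of -2.55 (SE 0.44, adjusted p = 0.043, fixed block 0.0809). The fourth called member of the junction and polarity list was Myo5c, a myosin of secretory vesicles, which fell by 2.29 on the log2 scale (adjusted p = 0.043, fixed block 0.0809).

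Other claudins moved less. Of 23 claudins on the array 19 were tested, and 5 had an HG-PIN or tumour mean above background. Beside Cldn4, the log2 changes were -1.30 for Cldn7 (SE 0.35, adjusted p = 0.239), -0.72 for Cldn3 (SE 0.28, adjusted p = 0.527), -0.36 for Cldn12 (SE 0.25, adjusted p = 0.875) and 0.15 for Cldn19 (SE 0.31, adjusted p = 0.995). Cldn3 still read 5.58, 5.26 and 5.47 in tumours, above background on every array, against 6.33, 6.12 and 6.01 in HG-PIN. The difference between Cldn4 and its relatives was not tested.

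Keratin genes differed in the size of their changes. Krt8, the keratin of simple and luminal epithelium, read 8.26, 7.68 and 7.88 in HG-PIN and 4.71, 5.59 and 4.86 in tumours, with the highest tumour in mouse 2. The log2 change was -2.88 (SE 0.39, adjusted p = 0.0154, fixed block 0.0505). Krt18, its usual partner in the filament, read 8.31, 7.74 and 8.53 against 7.82, 5.83 and 6.86. The groups overlapped here, mouse 1 kept nearly its HG-PIN level, and the change of -1.35 (SE 0.60, adjusted p = 0.623) did not pass. Krt19 stood at 6.98, 6.65 and 6.98 in HG-PIN and 5.58, 5.23 and 6.32 in tumours, a change of -1.16 (SE 0.49, adjusted p = 0.573). All 6 luminal keratins tested had negative changes with a median of -0.99, and 1 was called.

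Krt15, a keratin of basal and progenitor cells, read 8.86, 8.14 and 8.80 in HG-PIN and 5.24, 5.53 and 6.03 in tumours, all still above background. It fell by 3.0 (SE 0.41, adjusted p = 0.0158, fixed block 0.0473). Krt14, a basal keratin, read 5.86, 6.72 and 5.99 against 4.61, 5.01 and 4.72, with no overlap, and its change of -1.41 (SE 0.30, adjusted p = 0.0955) missed the threshold. Krt4, a keratin of stratified mucosa, fell by 2.16 in the 9-array fit (adjusted p = 0.0294) and passed with the fixed block as well (0.0215). The basal list of 11 genes tested had 1 call and a median of -0.35, with 9 members negative. The control HG-PIN values of Krt15 were 7.10, 6.08 and 6.68, so that the tumours lay 1.02 below control HG-PIN (log2 change -1.02, adjusted p = 0.441) and 3.0 below HG-PIN of their own mice.

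Transcription factors of the epithelial state showed the same direction. Of 20 tested, 3 fell (Elf3, Foxa1 and Ehf), against 0.216% of all genes called lower, and 0 rose (0 at p under 0.05 before adjustment). A negative change was found for 19, with a median of -0.56, where 48.9% of all genes had a positive one. Elf3, an epithelial ETS factor, read 7.02, 6.51 and 5.93 in HG-PIN and 3.12, 3.55 and 4.05 in tumours, a change of -2.91 (SE 0.39, adjusted p = 0.0154, fixed block 0.0505). Foxa1, a pioneer factor of luminal prostate cells, read 7.45, 7.05 and 6.91 against 4.42, 4.69 and 4.09, a change of -2.74 (SE 0.43, adjusted p = 0.0306, fixed block 0.0753). Ehf, a second epithelial ETS factor, read 7.42, 6.75 and 6.22 against 3.95, 4.0 and 4.60, a change of -2.62 (SE 0.44, adjusted p = 0.0366, fixed block 0.0753). For all 3 every tumour reading was under the background, and HG-PIN was well above it. Esrp1, a splicing regulator of epithelia (-2.15, adjusted p = 0.0773), and Grhl2, a factor that maintains junction genes (-1.56, adjusted p = 0.059), were singled out after their values were seen and did not pass.

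The ETS list as a whole gave no such pattern. Among 21 ETS genes tested, Elf3 and Ehf were the 2 called, 12 members had positive and 9 negative changes, and the median was 0.09. At p under 0.05 before adjustment 1 was higher and 3 lower. Elf5, named after its values were seen, was lower in 3 of 3 mice, with both means under background (change -1.70, SE 0.54, adjusted p = 0.362). Erg had a log2 change of 0.56 (SE 0.25, adjusted p = 0.628). Ets2, one of the genes between Tmprss2 and Erg, read 5.74, 4.92 and 5.13 in HG-PIN and 5.14, 3.63 and 5.72 in tumours. Its groups overlapped, with the tumour of mouse 2 the lowest and that of mouse 3 the second highest of the 6 arrays, and the change was -0.43 (SE 0.48, adjusted p = 0.974). Over the 15 interstitial genes tested, 0 passed by limma (0 higher and 3 lower at p under 0.05 before adjustment), the median was -0.17, and Bace2, a membrane protease, had the smallest p, with a change of -1.21 (SE 0.33, adjusted p = 0.251).

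Gsdmc2, Reg3b and Mmp7 had the widest called falls and stood in the list of mucosal defence genes. These encode secreted and membrane proteins with which epithelia meet microbes. Of 23 tested, 9 fell and 0 rose (0 at p under 0.05 before adjustment), against 0.216% of all genes called lower, and the median was -1.84. By mouse the median of the list was -2.08, -1.51 and -1.32. Above background were 17 members in HG-PIN and 8 in tumours.

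Gsdmc2, a pore-forming gasdermin, read 8.29, 7.79 and 6.71 in HG-PIN and 2.33, 1.95 and 2.29 in tumours. Tumour readings were under the background and close to each other, so the fold of 42.4 is set by a tumour level under background (log2 change -5.41, SE 0.84, adjusted p = 0.0294, fixed block 0.0753). Its paralog Gsdmc3 fell by 3.66 (SE 0.64, adjusted p = 0.0432, fixed block 0.082). Reg3b, an antibacterial C-type lectin, read 9.96, 8.98 and 7.19 in HG-PIN and 3.14, 3.01 and 4.99 in tumours. Mouse 3 had both the lowest HG-PIN and the highest tumour level, and a smaller fall than the other mice. The log2 change of Reg3b was -5.00 (SE 0.77, adjusted p = 0.0294, fixed block 0.0753). Reg3g, the neighbouring lectin gene of the same family, read 7.80, 7.25 and 4.95 against 2.10, 1.89 and 2.44, a change of -4.52 (SE 0.81, adjusted p = 0.0458, fixed block 0.0753). Probe sets of close paralogs can share signal, which was not tested for the Gsdmc and Reg3 pairs.

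Mmp7, matrilysin, a metalloproteinase of glandular epithelium that activates defensins, read 9.67, 10.31 and 9.68 in HG-PIN and 4.38, 4.78 and 5.78 in tumours. It fell by 4.90 (SE 0.69, 29.9-fold, adjusted p = 0.0185, fixed block 0.0564). A second, dimmer Mmp7 probe set, at 5.26 in HG-PIN and 4.46 in tumours, gave -0.80. Cxcl15, a neutrophil chemokine of mucosal epithelia, read 7.78, 7.96 and 6.77 against 3.12, 3.37 and 3.69, a change of -4.11 (SE 0.68, adjusted p = 0.0366, fixed block 0.0753). Pigr, the receptor that carries IgA across epithelia, read 9.06, 8.67 and 8.58 against 4.60, 4.86 and 5.02, a change of -3.94 (SE 0.61, adjusted p = 0.0294, fixed block 0.0753). In Cxcl15 and Pigr the arrays of a lesion were close and the lesions far apart. The remaining defence genes that fell were Wfdc2, a secreted whey acidic protein (-3.09, adjusted p = 0.037, fixed block 0.0753), and Ltf, lactoferrin, which binds iron (-2.84, SE 0.30, adjusted p = 0.004, fixed block 0.0215). Ltf was the one gene of the list to pass with the fixed block, while in the 6-array paired fit Gsdmc2, Gsdmc3, Mmp7, Reg3g, Cxcl15, Pigr and Ltf passed, with adjusted p values of 0.00281, 0.0121, 0.013, 0.0251, 0.0121, 0.0174 and 0.0251.

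Pglyrp1, Cd14 and Sp100, which were in no pathway list, fell too. Pglyrp1, a peptidoglycan recognition protein, had a log2 change of -2.77 (SE 0.43, adjusted p = 0.0294, fixed block 0.0722). Cd14, the co-receptor for lipopolysaccharide, had one of -1.73 (SE 0.30, adjusted p = 0.0409, fixed block 0.0753) and was -0.75 in tumours against control HG-PIN. Sp100, a nuclear body protein induced by interferon, had one of -1.68 (SE 0.30, adjusted p = 0.0444, fixed block 0.0809), and its 4 probe sets gave -0.22 to -2.88. Cd14 is also a macrophage marker, and the other 13 macrophage markers tested had a mean level of 4.43 to 4.72 in HG-PIN and 4.22 to 5.05 in tumours, overlapping ranges.

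**Figure D2:**
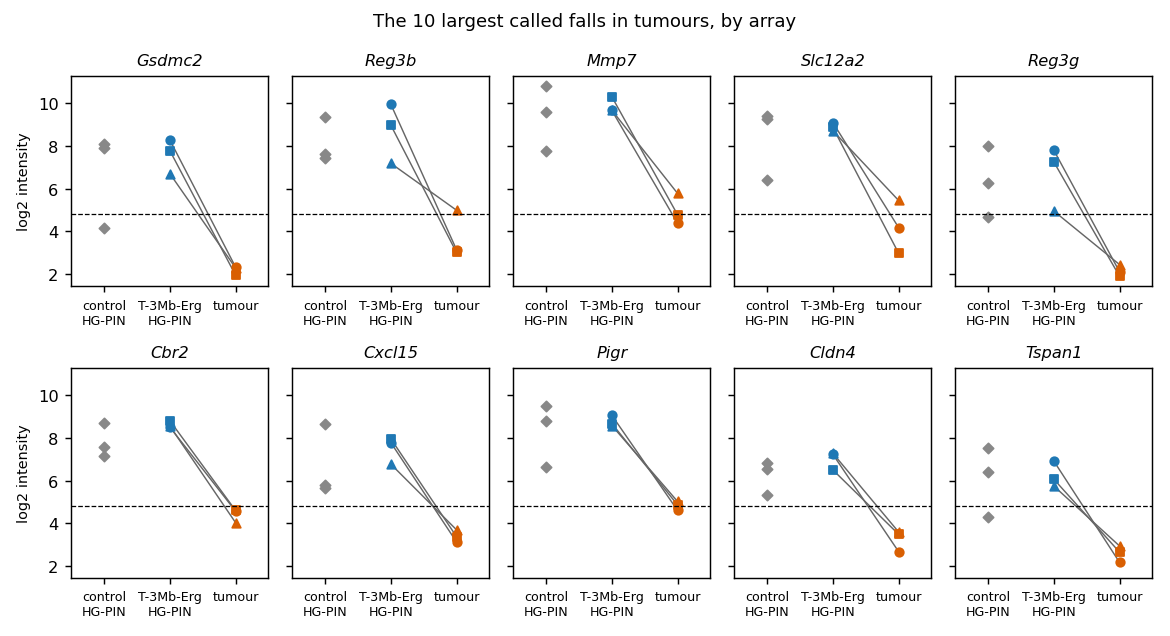
Log2 intensity on each of the 9 arrays for the 10 largest called falls, 1 panel a gene. Circles, squares and triangles are mice 1, 2 and 3, lines join the captures of a mouse, grey diamonds are control HG-PIN, and the dashed line is the receptor background of 4.81; each tumour lies below all HG-PIN arrays.

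Secretory products of the prostate divided by mouse. Of 14 tested, Pigr and Clu fell, and the median was -1.63, but by mouse it was -2.70, -0.11 and -1.89. Clu, clusterin, a secreted chaperone, read 8.88, 8.94 and 7.99 in HG-PIN and 5.61, 4.67 and 6.06 in tumours, and fell by 3.15 (SE 0.51, adjusted p = 0.0328, fixed block 0.0753). Pbsn, probasin, whose promoter drives the Cre, was added after its values were seen. It read 5.34, 2.89 and 5.65 in HG-PIN, 2.54, 2.64 and 2.86 in tumours and 5.77, 3.57 and 10.80 in control HG-PIN. The HG-PIN mean of 4.63 was under background, but HG-PIN of mice 1 and 3 was above it. Every tumour was under background (mean 2.68, change -1.95, adjusted p = 0.883). Among 14 androgen-regulated genes tested 0 passed by limma (1 higher and 5 lower at p under 0.05 before adjustment), with a median of -0.74. Psca, a surface protein of prostate epithelium, had a change of -2.02 (SE 0.52, adjusted p = 0.207).

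Ion and solute transport genes of epithelia supplied 3 calls among 17 tested, all lower, against 0.216% of all genes called lower. The median was -0.88. Slc12a2, the basolateral sodium-potassium-chloride cotransporter, read 9.10, 8.87 and 8.72 in HG-PIN and 4.18, 2.98 and 5.45 in tumours. HG-PIN was uniform and the tumours were spread, with mouse 2 the lowest; the change was -4.69 (SE 0.79, 25.9-fold, adjusted p = 0.0366, fixed block 0.0753). Car2, carbonic anhydrase, fell by 3.39 (SE 0.38, adjusted p = 0.00436, fixed block 0.0215). Gabrp, the pi subunit of the GABA-A receptor, fell by 3.10 (SE 0.33, adjusted p = 0.004, fixed block 0.0215), and like Krt15 it was lower in control HG-PIN (5.88, 5.07 and 5.38) than in HG-PIN of T-3Mb-Erg mice (7.45, 6.83 and 6.70). Outside the list Slc39a4, a zinc importer, fell by 2.02 (SE 0.31, adjusted p = 0.0294, fixed block 0.0566).

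Of the membrane serine proteases and inhibitors, 1 of each fell. St14, matriptase, had a log2 change of -1.88 (SE 0.31, adjusted p = 0.0366, fixed block 0.0753), and Spint1, the inhibitor that binds it, one of -1.69 (SE 0.30, adjusted p = 0.0436, fixed block 0.0753). These were the 2 calls among 11 genes tested, against 0.216% of all genes called lower. Of the 11, 10 were negative, with a median of -0.90.

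Cbr2 and Cyp2f2, like Car2, Gabrp and Ltf, passed in 21 of 22 alternative settings, the highest number reached. Cbr2 encodes a carbonyl reductase and read 8.51, 8.81 and 8.56 in HG-PIN and 4.57, 4.60 and 4.03 in tumours. The change of -4.23 (SE 0.43, 18.7-fold) had an adjusted p of 0.004, and 0.0215 with the fixed block. Cyp2f2, a cytochrome P450 of secretory airway cells, fell by 3.51 (SE 0.38, adjusted p = 0.004, fixed block 0.0215), with -2.08 on a second probe set. Tspan1, a tetraspanin of epithelia, read 6.91, 6.06 and 5.74 against 2.16, 2.64 and 2.93, a change of -3.66 (SE 0.64, adjusted p = 0.0436, fixed block 0.0857). The remaining genes that fell were Smim22, a small membrane protein (-3.12, adjusted p = 0.0328, fixed block 0.0473), Adgrg6, an adhesion G protein-coupled receptor (-2.28, adjusted p = 0.0432, fixed block 0.0809), S100a14, a calcium-binding protein of epithelia (-1.73, adjusted p = 0.0366, fixed block 0.0753), and Blnk, an adaptor of B-cell receptor signalling (-1.50, adjusted p = 0.0306, fixed block 0.0722).

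The genes that rose had varied known roles. Prrx1, a homeobox factor of embryonic and wound mesenchyme, read 4.60, 5.39 and 4.41 in HG-PIN and 8.21, 7.44 and 7.38 in tumours. The tumours were all far above HG-PIN and above control HG-PIN (4.56, 4.53 and 4.35). The log2 change was 2.87 (SE 0.34, 7.32-fold, adjusted p = 0.0072, fixed block 0.0215). Among 13 mesenchymal transcription factors tested it was the 1 called, and the median was 0.22. Snai2 had a change of 1.33 (adjusted p = 0.253), Twist1 0.47 (adjusted p = 0.915), Zeb1 0.22 (adjusted p = 0.969) and Snai1 -0.12 (adjusted p = 0.995); these factors, classical drivers of the epithelial to mesenchymal transition, were picked out after their values were seen. Zeb1 and Twist1 had means under the background in both lesions, Twist2 was below the signal filter, and no change was detectable there.

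Gja1, a connexin, the gap junction protein of mesenchymal and basal cells, read 4.28, 5.14 and 4.40 in HG-PIN and 8.22, 6.93 and 8.74 in tumours. It rose by 3.36 (SE 0.44, 10.2-fold, adjusted p = 0.0143, fixed block 0.0473), least in mouse 2. Of 15 mesenchymal surface and cytoskeletal genes tested, Gja1 was the 1 called, 12 were positive, and the median was 0.54. Vim, vimentin, the mesenchymal intermediate filament, read 6.91, 7.42 and 6.17 in HG-PIN and 8.94, 7.71 and 9.23 in tumours. Its groups did not overlap, but mouse 2 differed by 0.30 and mouse 3 by 3.06, and the change of 1.80 (SE 0.50, adjusted p = 0.256) did not pass; a second probe set gave 1.28. Cdh2, which encodes N-cadherin, was removed by the signal filter, which used the mean over all 9 arrays. It stood at 3.31 ± 0.07 in HG-PIN and 3.29 ± 0.31 in tumours (SD, n = 3 each), under the receptor background in both.

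Lox, the enzyme that crosslinks collagen and elastin, read 3.47, 4.35 and 2.83 in HG-PIN and 7.49, 5.45 and 7.91 in tumours. The rise was smallest in mouse 2, at 1.09 against 4.02 in mouse 1 and 5.07 in mouse 3. The fitted change was 3.40 (SE 0.58, 10.5-fold, adjusted p = 0.0384, fixed block 0.0753). Of the 12 crosslinking and collagen-modifying enzymes tested Lox was the 1 called (0.0661% of all genes called higher), and the median was 0.59. All 12 had positive changes (48.9% of all genes), 8 of them in 3 of 3 mice (11.5% of all genes). Loxl1, a paralog, read 3.76, 4.30 and 4.33 against 4.66, 4.85 and 6.70 (change 1.27, adjusted p = 0.48), and Loxl3 stood at 0.14 (adjusted p = 0.993). Collagen genes themselves gave 0 calls of 16 by limma (6 higher and 0 lower at p under 0.05 before adjustment), with a median of 0.65. Col1a1 read 5.70, 6.43 and 5.81 in HG-PIN and 7.62, 6.63 and 8.73 in tumours (change 1.68, SE 0.49, adjusted p = 0.294), again with the smallest difference in mouse 2. For the collagens the median by mouse was 0.38, -0.06 and 1.69.

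Metalloproteinases and their inhibitors had Mmp7 as the 1 call of 15, and a median of 0.30. In the TGF-beta and activin list 0 of 20 passed by limma (6 higher and 0 lower at p under 0.05 before adjustment), with a median of 0.25. Tgfb3, a TGF-beta ligand, read 3.77, 3.61 and 3.63 in HG-PIN and 5.38, 4.41 and 4.88 in tumours, a change of 1.22 (SE 0.25, adjusted p = 0.0723, fixed block 0.0753). Tgfbi, a matrix protein induced by TGF-beta, read 4.11, 4.35 and 4.79 against 7.81, 5.30 and 8.43, a change of 2.76 (SE 0.63, adjusted p = 0.122, fixed block 0.0753). Neither gene's groups overlapped, and both missed the threshold.

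Slit3, a secreted guidance ligand of Robo receptors, read 4.46, 5.51 and 5.04 in HG-PIN and 7.47, 6.58 and 7.61 in tumours. It rose by 2.21 (SE 0.36, adjusted p = 0.0336, fixed block 0.0753) and was the 1 call among 8 Slit and Robo pathway genes tested. Of the others, named after their values were seen, the ligands Slit1 and Slit2 had changes of -0.17 and -0.30, and the receptors Robo1 and Robo4 of 0.34 and 0.31, all with means under the background.

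Gpx3, the secreted glutathione peroxidase, read 4.60, 5.61 and 3.83 in HG-PIN and 7.73, 7.45 and 7.79 in tumours. Tumours were nearly equal and HG-PIN varied, and the change was 2.98 (SE 0.42, 7.90-fold, adjusted p = 0.018, fixed block 0.0473). The other peroxidases above background, Gpx1, Gpx4 and Gpx8, had changes of -0.37, 0.22 and 1.20, and none of these 3 passed (adjusted p from 0.581 to 0.98). Gatm, the first enzyme of creatine synthesis, read 3.24, 3.35 and 2.96 against 6.67, 4.88 and 5.36, a rise of 2.45 (SE 0.38, adjusted p = 0.0298, fixed block 0.0473).

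Ctla2a, an inhibitor of cysteine proteases of the cathepsin L kind, had the widest rise. It read 5.25, 6.70 and 5.12 in HG-PIN, 10.17, 9.59 and 10.03 in tumours and 5.01, 2.31 and 4.10 in control HG-PIN. Tumours were uniformly high, and in HG-PIN mouse 2 stood above the other arrays. The log2 change was 4.24 (SE 0.64, 18.9-fold, adjusted p = 0.0294, fixed block 0.0722). Its paralog Ctla2b read 2.84, 2.72 and 2.67 in HG-PIN and 3.57, 2.46 and 7.73 in tumours, so that only the tumour of mouse 3 was above background; how far the paralogs' probe sets share signal was not tested.

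The last genes to rise did so from under the background, and for Rtl8c the tumour mean was under it too. Spon2, a secreted matrix protein, read 4.61, 4.17 and 4.60 in HG-PIN and 6.44, 5.56 and 6.21 in tumours (change 1.61, SE 0.29, adjusted p = 0.0458, fixed block 0.0626). Rtl8c, a gene derived from a retrotransposon, read 3.13, 3.46 and 3.03 against 4.32, 4.74 and 4.98 (change 1.47, SE 0.22, adjusted p = 0.0294, fixed block 0.0516). Arhgdib, a gene of blood cells that stood in the lymphocyte marker list, read 3.72, 3.66 and 3.66 against 5.10, 4.81 and 5.31 (change 1.39, SE 0.19, adjusted p = 0.018, fixed block 0.0487). The remaining called gene bears only a clone name.

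**Figure D3:**
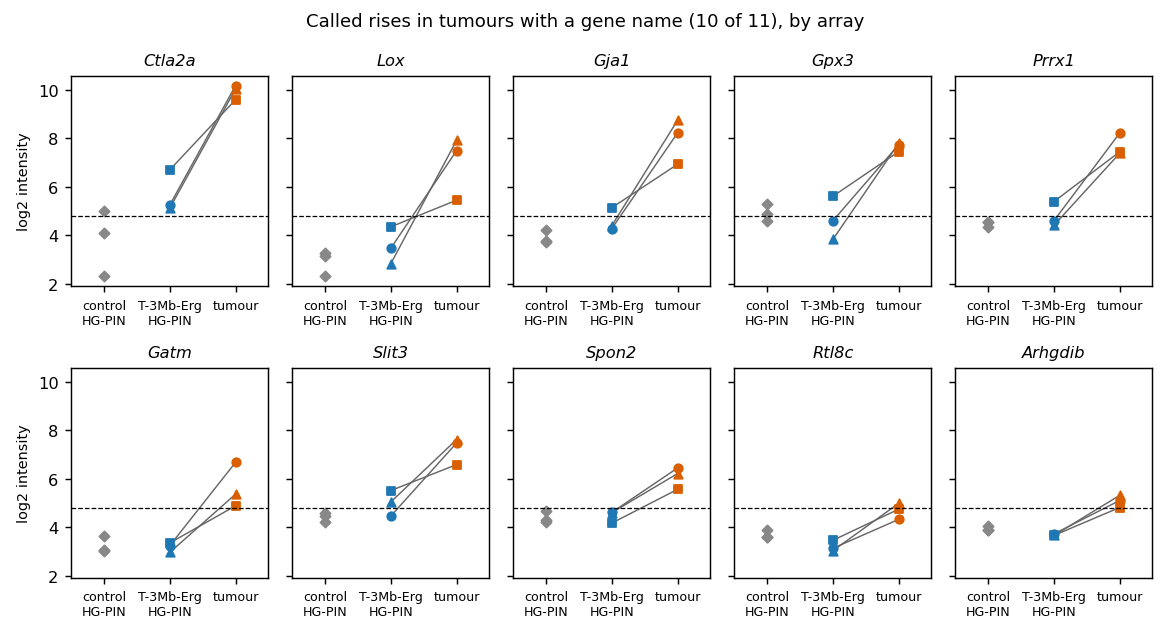
Log2 intensity on each of the 9 arrays for 10 of the 11 genes called higher in tumours, with symbols, lines and the background line as in the plot of called falls. In 10 of the 11 called genes mouse 2 (squares) had the smallest rise, as Lox and Gja1 show.

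The mice differed from each other. The median change of the genes called lower was -3.52, -2.73 and -2.70 in mice 1, 2 and 3, and that of the genes called higher was 3.43, 1.53 and 2.57. Over all genes tested, 4-fold or more was reached on the higher and lower side by 99 and 201 genes in mouse 1, 23 and 145 in mouse 2, and 293 and 75 in mouse 3. The correlation of changes across genes, which are not independent, was 0.35 between mice 1 and 2, 0.21 between 1 and 3 and -0.09 between 2 and 3 (Pearson's r over 16635 genes; 0.52, 0.37 and 0.05 over the 5606 above background). Only 2 genes were at least 4-fold higher in 3 of 3 mice, Ctla2a and Prrx1, while 25 were at least 4-fold lower, of which 22 were called. The 3 others, chosen here after their values were seen, were Upk1b, a uroplakin of urothelium (-2.91, adjusted p = 0.0544), Sprr1a, a cornified envelope protein (-3.10, adjusted p = 0.146), and Naip6, an inflammasome sensor (-2.98, adjusted p = 0.0902).

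Several lists had no call. Over all 16635 genes tested, p before adjustment was under 0.05 for 610 with positive and 662 with negative changes, and 48.9% of changes were positive. Interferon response genes gave 0 of 27 by limma (0 higher and 13 lower at p under 0.05 before adjustment), with 25 negative changes, a median of -0.67 and a median by mouse of -0.68, -0.60 and -0.80. Oasl2, an antiviral oligoadenylate synthetase-like protein, read 5.88, 5.03 and 5.86 in HG-PIN and 2.38, 2.91 and 4.08 in tumours (change -2.47, SE 0.47, adjusted p = 0.0549, fixed block 0.0753, 6-array paired fit 0.0429), and Oas1g, of the same family, had a change of -2.27 (adjusted p = 0.059, fixed block 0.0834). Genes of antigen presentation gave 0 of 14 (0 higher and 4 lower at p under 0.05 before adjustment), with 13 negative and a median of -0.44. H2-T23 and H2-K1, class I molecules, had changes of -1.94 (adjusted p = 0.213) and -1.53 (adjusted p = 0.22).

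Proliferation genes gave 0 of 33 by limma (8 higher and 0 lower at p under 0.05 before adjustment), with 27 positive changes and a median of 0.38. Mki67, the marker of cycling cells, read 4.94, 4.22 and 4.60 in HG-PIN and 5.59, 4.25 and 6.27 in tumours, with overlap, a change of 0.78 (SE 0.46, adjusted p = 0.806). Rrm2, a subunit of ribonucleotide reductase, read 4.84, 4.88 and 2.03 against 8.15, 5.23 and 7.96 (change 3.20, SE 0.81, adjusted p = 0.195), so that the tumours of mice 1 and 3 were high and that of mouse 2 was close to its HG-PIN. Ccna2, cyclin A, had a change of 1.06 (adjusted p = 0.278). MAPK output genes had a median of 0.22 and 0 calls of 21 by limma (1 higher and 2 lower at p under 0.05 before adjustment). Among ERBB receptors and ligands 0 of 11 passed (1 higher and 4 lower at p under 0.05 before adjustment), with a median of -0.19 and -1.13 for Erbb3 (adjusted p = 0.218). Fatty acid synthesis had 0 of 11 (3 higher and 0 lower), with a median of 0.10, glycolysis and hypoxia 0 of 17 (2 higher and 1 lower), with a median of 0.09, and CDK inhibitors and stress genes 0 of 14 (0 higher and 0 lower), with a median of -0.03.

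**Figure D4:**
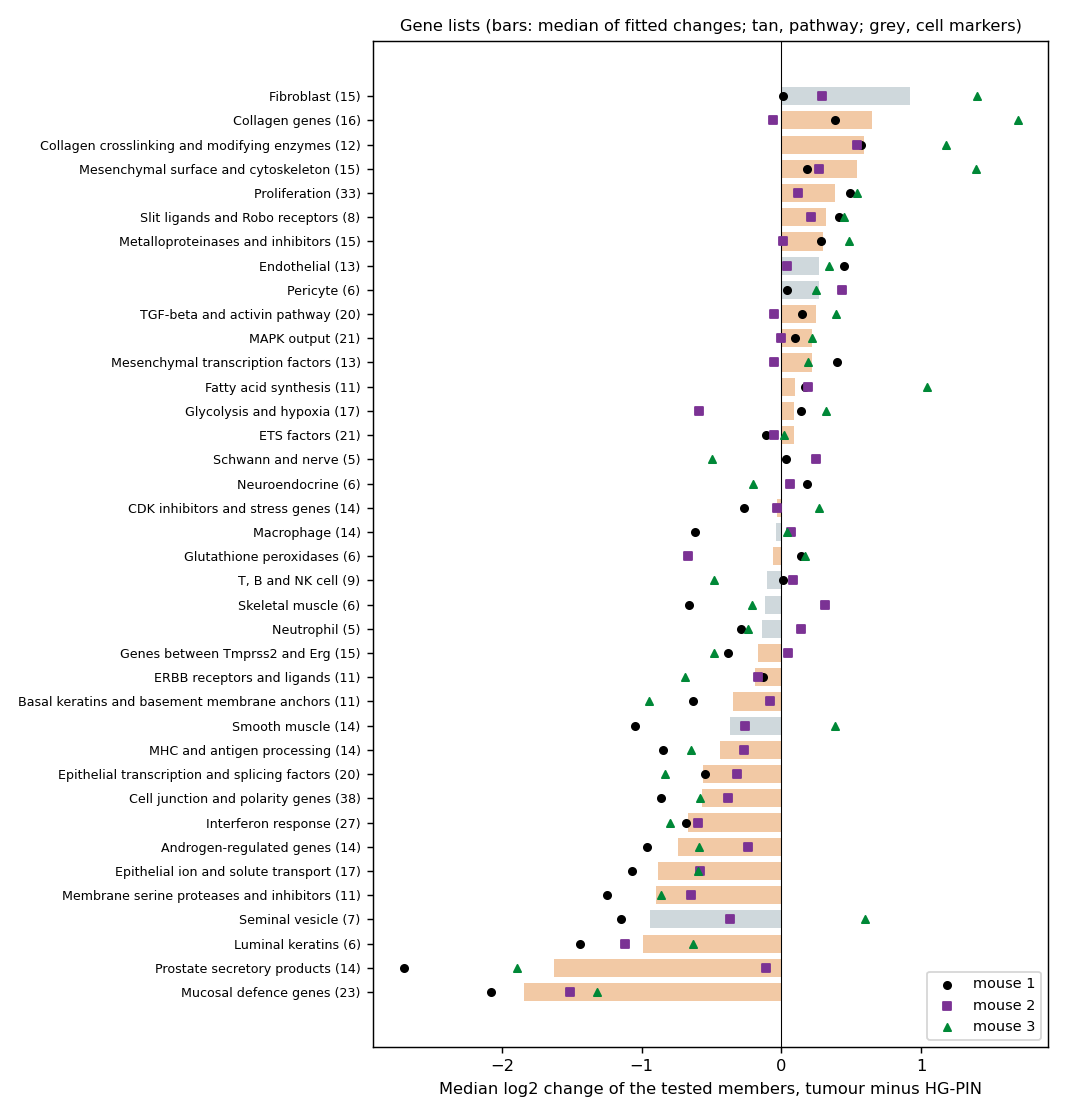
Median log2 change, tumour minus HG-PIN, of each gene list with at least 5 members tested (number in brackets); bars are medians of the fitted changes and points the medians in mice 1, 2 and 3. Mucosal defence genes lie lowest at -1.84, and for collagen and fibroblast genes mouse 3 stands to the right of the other mice.

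Fibroblast markers read higher in tumours, with the widest difference in mouse 3. In captured tissue fewer cells of a type and less RNA per cell cannot be told apart. Of 20 fibroblast markers, 15 were tested, 1 was called (Gpx3) and 15 had a positive change, with a median of 0.92; Dpt, Fap, Mfap4 and Ogn were below the signal filter in both lesions. Without Gpx3 the mean level of the list was 4.29 to 4.56 in HG-PIN and 5.25, 4.76 and 6.34 in tumours, so that the tumours were higher by 0.69, 0.21 and 2.05 in mice 1, 2 and 3. Its members differed among mice: Pdgfra had changes of 3.85, 0.75 and 1.26 and Lum of -2.18, 0.34 and 5.96, both singled out after their values were seen. By mean level without Gpx3, mouse 2 had the smallest difference in this list, as it had in Lox, Gja1 and Col1a1. By the median change of all 15 members tested, mouse 1 had the smallest, with 0.01, 0.29 and 1.4 in mice 1, 2 and 3. Of the 15, 6 were higher in 3 of 3 mice, as were 11.5% of all genes. The part of fibroblasts in the rises of Lox, Gja1 and Col1a1 was not tested.

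Endothelial markers without Ctla2a, which was in that list, had a mean level of 3.76 to 4.07 in HG-PIN and 4.13 to 4.78 in tumours. Of the 12, 2 had a tumour mean above background; Cdh5, VE-cadherin, had a change of 1.05 (adjusted p = 0.755) and Pecam1 of 0.87 (adjusted p = 0.506), both picked after their values were seen, and Tek and Esam were below the signal filter. The part of endothelial cells in the rise of Ctla2a was not tested. Pericyte markers were at 4.25 to 4.32 in HG-PIN and 4.52 to 4.93 in tumours, and Rgs5, a pericyte marker, had a change of 2.02 (SE 0.37, adjusted p = 0.0531, fixed block 0.082). Smooth muscle markers ran the other way in mice 1 and 2: their mean was 6.11, 4.86 and 4.54 in HG-PIN of mice 1, 2 and 3 and 4.65, 4.40 and 5.32 in tumours. Arhgdib stood in the list of T, B and NK cell markers, of which the other 8 were at 3.80 to 4.31 in HG-PIN and 3.75 to 4.28 in tumours, with Cd3g, Cd79a, Ms4a1 and Ptprc below the signal filter.

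**Figure D5:**
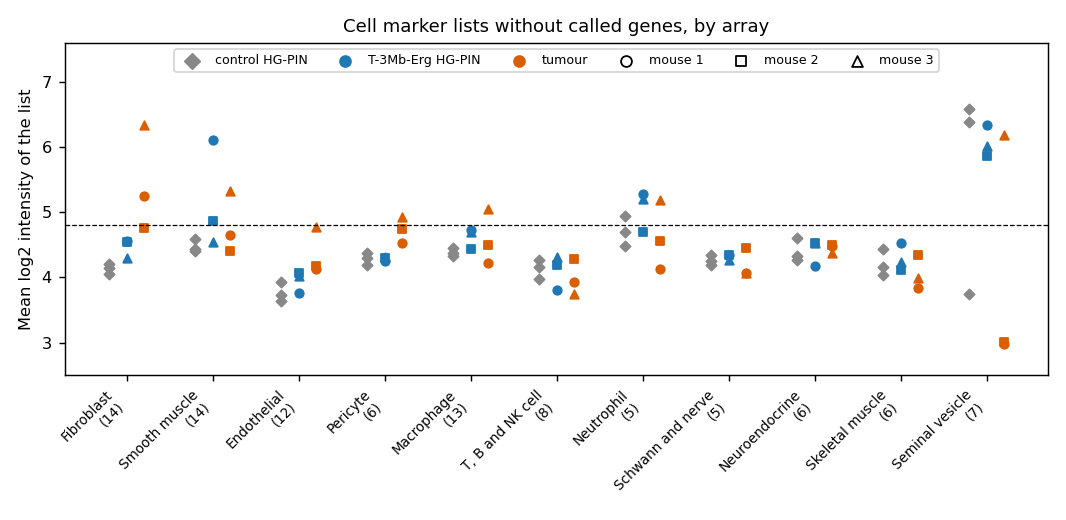
Mean log2 intensity of each cell marker list on each array, without genes called in the comparison; the number of genes is in brackets and the dashed line is the receptor background of 4.81. The tumour of mouse 3 reads 6.34 for fibroblast markers, and HG-PIN of mouse 1 reads 6.11 for smooth muscle markers.

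The same tumour arrays can be set beside control HG-PIN; both comparisons share the tumour arrays, so their values are given side by side and not as support for each other. Against control HG-PIN 30 genes were called (0.180%) by limma. These groups share no mouse, so no paired fit exists for them. The count was 0 without control HG-PIN array 3 (1298 at p under 0.05 before adjustment). Leaving out control HG-PIN array 1 gave 1, control HG-PIN array 2 gave 88, the tumour arrays of mice 1, 2 and 3 gave 3, 261 and 7, and the HG-PIN array of mouse 3 gave 6. Of the 36 genes that fell, 36 were also negative there, 34 of them by less, and 9 passed. Those genes were chosen by their fall against T-3Mb-Erg HG-PIN, which favours high readings in that group. Smaller falls against control HG-PIN can follow from that choice alone. Among the genes that fell, the largest gaps between these comparisons were those of Krt15 (-3.0 and -1.02) and Gabrp (-3.10 and -1.55), where HG-PIN of T-3Mb-Erg mice was itself higher than control HG-PIN. Foxa1 was close in both (-2.74 and -2.56), as were Myo5c (-2.29 and -2.43) and Clu (-3.15 and -3.39). Of the 11 genes that rose, all 11 were positive against control HG-PIN and 9 passed, with 4.24 and 6.12 for Ctla2a, 3.36 and 4.06 for Gja1, 3.40 and 4.03 for Lox and 2.87 and 3.19 for Prrx1. For Rtl8c the values were 1.47 and 0.99 (adjusted p = 0.11 against control HG-PIN).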

How the data were processed

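RNA from laser-captured, formalin-fixed lesions was amplified and hybridised to Affymetrix Mouse Gene 2.0 ST arrays, per the labels' protocols. The deposited values are linear intensity values for 41345 probe sets; how the authors corrected, summarised and normalized them is not given in the sources used here. RNA of fixed tissue is fragmented, which can lower signal and widen spread. Of the probe sets, 23521 had 1 symbol, 1814 several and 16010 none in the platform annotation; the brightest per symbol was kept (22180 symbols), log2-transformed with no pseudocount, and the dimmest 25% by mean (under 3.25) removed.

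limma 3.58.1 (R 4.3.3; lmFit, eBayes with a trend) estimated group means over 9 arrays, with the mouse as a random block (correlation -0.01), and all p values printed with the results come from limma, adjusted by Benjamini-Hochberg over 16635 genes. Replicate numbers mark mice named in the labels; same-mouse deviations correlated at 0.17, 0.10 and -0.30, and 2 further fits held the mouse as a fixed term for these 3 mice, over 9 arrays (control arrays adding only to the spread, 4 residual degrees of freedom) and over their 6 arrays. Arrays give no depth, and 3 per group limit the precision. The median 95% interval was 0.59 either side of a change over all genes tested and 0.91 over the called genes. The fit was tested on simulated data.

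The comparison, 41 gene lists and the naming rule were chosen with earlier results of these data known. Named were all called genes without clone names. Other names were drawn from each list's called members (at most 4) or else its 2 of smallest p, a set of lineage markers, and paralogs above background. Not all genes so drawn are printed, Fads1, Phlda1 and Cdkn1b being examples left out. Most names outside the rule are marked as picked after their values were seen. Promoters came from RefSeq (GRCm38.p6). A further allele shared by all mice is not reported here.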

Additional observations from a re-analysis of the deposited data

How the results depend on the processing

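The called genes with a gene name kept their direction under every alternative that tested them (696 results on the same side of the threshold, 315 weaker). The counts of calls did not hold. Against 11 higher, 36 lower and 30 against control HG-PIN, adding 16 before log2 gave 7, 11 and 8, median centring 5, 11 and 10, a 95th percentile term 66, 128 and 196, array weights 226, 179 and 938, and testing every probe set 2, 8 and 1. Removing the lowest 50% gave 17 higher, and quantile normalization 30 higher and 88 against control HG-PIN. Pairing by mouse through a fixed replicate block left 6 higher and 9 lower over 9 arrays and 1 higher and 25 lower over 6; the 6 arrays with no block gave 7 higher and 45 lower. Leaving out 1 array gave 0 to 85 higher, 0 to 84 lower and 0 to 261 against control HG-PIN. The cause of these differences in counts was not tested. Fits with arrays left out had fewer samples, and fits with the fixed block had fewer residual degrees of freedom. Sign changes occurred for Cldn19 (0.15), with -0.09 under array weights, -0.05 without HG-PIN of mouse 1 and -0.04 without the tumour of mouse 2 (-0.05 to 0.29 over arrays left out), and for Ets2 (-0.43), with 0.20 without the tumour of mouse 2 (-0.90 to 0.20). List medians moved in 25 of the results and did not in 855. Signal under the receptor background limits the folds of genes low in one lesion.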

Other observations

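Seminal vesicle secretion genes, picked after their values were seen, had different values in mouse 3 than in mice 1 and 2. Svs5, a seminal vesicle secretory protein, read 12.23, 10.58 and 7.67 in HG-PIN of mice 1, 2 and 3, 2.69, 3.03 and 8.41 in their tumours and 9.11, 10.62 and 4.79 in control HG-PIN. Svs2, of the same family, read 10.31, 9.87 and 4.92, then 1.77, 2.48 and 5.71, and 5.50, 9.58 and 3.71. Both were high in HG-PIN of mice 1 and 2 and low in their tumours, whereas in mouse 3 the tumour was the higher. Their changes of -5.45 and -5.05 were wide but did not pass in limma (adjusted p = 0.358 and 0.374). The 7 seminal vesicle markers tested had a mean level of 2.98, 3.01 and 6.19 in tumours and 5.86 to 6.33 in HG-PIN.

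Serping1, the inhibitor of complement C1 esterase, had a change of 2.91 (adjusted p = 0.0561), and Atp1b1, a sodium pump subunit, one of -3.07 (adjusted p = 0.0698); both were picked after their values were seen. When all 31009 probe sets above the filter were tested, named or not, 10 were called, of which 3 had no single symbol.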
